A study of Caenorhabditis elegans with 3 samples.

Results

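The 620 autosomal promoter peaks of EGL-27 described here came from chromatin immunoprecipitation sequencing (ChIP-seq) of whole first-larval-stage (L1) Caenorhabditis elegans. They were chosen by measured values: the nuclear peaks of the pooled relaxed list were ranked by the signal value of the authors' peak caller, and the 1500 highest of 23217 were kept. Of these, 1163 lay on autosomes, and a peak was a member when its summit fell between 1000 bp upstream and 500 bp downstream of the annotated 5′ end of any protein-coding transcript. The members made up 53.3% of the autosomal peaks among the 1500. The remaining autosomal peaks used for comparison were 166 intronic and 281 intergenic ones, beside 337 on the X chromosome, and 6940 further autosomal promoter peaks ranked after position 1500.

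All libraries were from strain OP177, whose worms carry the unc-119 allele ed3 on chromosome III and the integrated transgene wgIs177, in which EGL-27 is tagged with green fluorescent protein (GFP). The labels number 3 biological replicates of mixed-sex L1 larvae, which formed a single group with no second condition, and an untagged sample was not analysed here. A stock centre was the source of the worms of replicates 1 and 2, whose libraries are labelled with a size range of 150 to 350 bp, while replicate 3 came from the submitting laboratory, was sonicated with a microtip and is noted as carrying a C-terminal GFP-FLAG tag. Source and preparation therefore cannot be told apart from replicate number. Whole animals were used, so a peak does not say in which cells EGL-27 was present.

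EGL-27 is related to the metastasis-associated (MTA) proteins, which are subunits of the nucleosome remodelling and deacetylase (NuRD) complex. Such proteins act at chromatin together with histone deacetylases and remodelling enzymes, and EGL-27 itself is known for roles in cell polarity and migration, Wnt-dependent patterning, seam cell fate and stress resistance in the worm. Promoters of C. elegans often lie between closely spaced genes, and many messenger RNAs receive a spliced leader, so that an annotated 5′ end can lie downstream of the site where transcription starts.

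Most of the sequences below are shown because they carry the motifs that the results turn on, while that of egl-27, the strongest member, carries none. They do not show how common the motifs are. Each spans 50 bp on either side of a member summit in build WBcel235 (ce11), read 5′ to 3′ on the strand of the gene with the nearest 5′ end. Capitals mark GAGAGA, CTGCGTCTC or CTCCGC on either strand.
egl-27, chrII:6842849-6842949, plus strand: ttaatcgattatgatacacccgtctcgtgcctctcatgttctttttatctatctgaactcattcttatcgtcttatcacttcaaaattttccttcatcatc
ogt-1, chrIII:7153981-7154081, minus strand: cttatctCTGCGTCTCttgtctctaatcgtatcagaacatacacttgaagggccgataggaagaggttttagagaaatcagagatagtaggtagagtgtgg
drap-1, chrV:9731145-9731245, plus strand: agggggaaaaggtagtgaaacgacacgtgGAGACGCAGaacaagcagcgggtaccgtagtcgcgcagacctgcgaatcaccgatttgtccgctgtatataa
zfp-1, chrIII:8802129-8802229, plus strand: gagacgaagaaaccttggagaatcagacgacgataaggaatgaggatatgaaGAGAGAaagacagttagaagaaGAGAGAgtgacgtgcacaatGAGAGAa
hlh-11, chrIII:9619259-9619359, plus strand: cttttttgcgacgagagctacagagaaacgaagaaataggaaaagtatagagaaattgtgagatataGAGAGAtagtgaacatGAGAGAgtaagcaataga
rpl-3, chrIII:3867537-3867637, plus strand: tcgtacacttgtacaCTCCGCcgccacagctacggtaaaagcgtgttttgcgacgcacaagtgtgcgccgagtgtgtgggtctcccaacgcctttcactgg
Y97E10C.1, chrV:7728202-7728302, plus strand: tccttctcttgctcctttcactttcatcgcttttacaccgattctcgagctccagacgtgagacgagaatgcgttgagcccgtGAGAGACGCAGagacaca
Y43F8B.2, chrV:19522830-19522930, minus strand: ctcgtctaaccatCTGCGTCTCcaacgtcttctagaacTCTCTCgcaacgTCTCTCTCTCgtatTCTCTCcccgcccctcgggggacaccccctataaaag
The egl-27 summit held none of the marked letters, ogt-1 and drap-1 held CTGCGTCTC, and zfp-1 and hlh-11 held several GAGAGA repeats. The rpl-3 summit held CTCCGC, and both Y97E10C.1 and Y43F8B.2 held GAGAGA together with CTGCGTCTC. In Y97E10C.1 those motifs shared letters, and such an overlap was present in 14 of the 34 members that held both.

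The strongest member lay in egl-27 itself, 495 bp downstream of an annotated 5′ end at chrII:6842704-6843093, with a pooled signal of 169.3. Its signal was 40.5 in replicate 1, 57.4 in replicate 2 and 80.4 in replicate 3, which were ranks 2, 4 and 4 of the respective nuclear lists. The locus stood near the top of every list. Altogether 7 members had a 5′ end of egl-27 in reach, with summits 916, 874, 671, 515 and 227 bp upstream and 212 and 495 bp downstream of transcript starts of the gene. Within 20 kb of egl-27 lay 9 members. A transgene of this kind carries its own copy of the tagged gene, and peaks of the native and the transgenic copy cannot be told apart in these lists. Without the members within 20 kb of egl-27, 611 members remained.

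Of the other members of highest signal, several lay at regulators and enzymes. The summit 234 bp upstream of ogt-1, the O-GlcNAc transferase, had a pooled signal of 112.2 and signals of 24.98, 33.2 and 50.1 in replicates 1, 2 and 3. The summit 640 bp upstream of zfp-1, a homologue of the human zinc finger protein AF10, had 103.7 in the pool and 25.9, 30.6 and 52.1 in the replicates. Both were among the 50 highest of every replicate. The hlh-11 summit, 402 bp upstream of a basic helix-loop-helix factor gene, had 95.3 in the pool and 30.3, 24.8 and 48.9 in the replicates. At drap-1, a homologue of the DR1-associated corepressor, the pooled signal of 99.98 came with 16.6, 16.98 and 64.1 in the replicates, at ranks 70, 363 and 9, so replicate 3 placed it far higher than the others did. The tasp-1 summit (a threonine aspartase homologue) had a pooled signal of 97.8, and cdc-48.1 (the p97/VCP ATPase) had 83.7.

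Some of the 20 highest lay at genes of protein synthesis or folding. The rpl-3 summit, 267 bp upstream of the gene of a large ribosomal subunit protein, had a pooled signal of 103.5 and signals of 8.76, 32.3 and 61.3, at ranks 452, 39 and 14. Its replicates were thus uneven. Summits upstream of rps-28 (88.2) and iff-2, the gene of translation factor eIF5A (84.1), were also in this set. So were 3 summits upstream of rpl-20 (91.3), rps-12 (82.2) and hsp-90 (78.6), for which the nearest gene was another, Y17G9B.5, ska-3 and C47E8.4. The remaining members of that set were egg-5 (106.4), H41C03.3 (105.8), tub-2 (103.6), tag-340 (101.6), tos-1 (98.8), W06H8.6 (94.4) and Y97E10C.1 (78.1). Every one of the 20 was among the 1500 highest peaks of all 3 replicates.

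**Figure D1:**
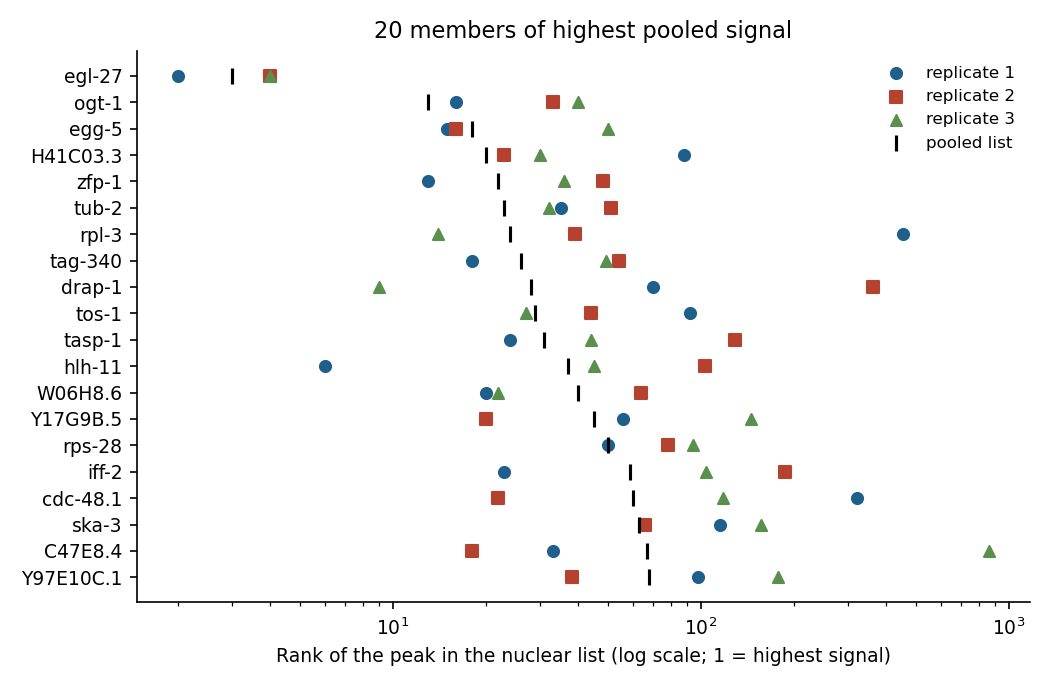
Rank of the 20 members of highest pooled signal in the pooled list (bars) and in each replicate's nuclear list (symbols), on a log axis where 1 is the highest signal. egl-27 lies at ranks 2 to 4 in every replicate, while rpl-3, drap-1 and C47E8.4 have 1 replicate far below the others.

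Signal values chose the members, so their level is a description. Pooled signal ran from 22.6 to 169.3 with a median of 30.8, against a median of 30.7 over all 1500 peaks, 30.4 for the intronic, 30.4 for the intergenic and 31.5 for the X peaks. Only 8 members exceeded a signal of 100 and 85 exceeded 50, and all 620 were 390 bp wide. The last members inside the limit were nhr-112 (22.61), eas-1 (22.60) and rheb-1 (22.60), and the first autosomal promoter peaks outside it were ears-2 (22.58), cyn-3 (22.56) and K10B2.4 (22.53). No gap in signal separated them. At the window edges, the summits at egl-3 (998 bp upstream) and fasn-1 (464 bp downstream) fell inside, and those at zak-1 (1004 bp upstream) and at a further zfp-1 peak (509 bp downstream) fell outside.

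The replicates recovered the members unevenly. Of the 620 summits, 280 (45.2%) lay inside one of the 1500 highest peaks of replicate 1, 325 (52.4%) of replicate 2 and 407 (65.6%) of replicate 3, a mean of 54.4% ± 10.4 (SD, n = 3). The same shares over all 1500 pooled peaks were 46.1%, 50.5% and 68.7%, so the members were recovered about as often as the pooled peaks in general. Only 122 members (19.7%, against 21.3% of the 1500) were in all 3 top lists, 207 were in 2, 232 in 1 and 59 in none. Of those in a single list, 35 were in that of replicate 1, 68 in that of replicate 2 and the rest in that of replicate 3. Because the pool holds the replicates, these counts describe agreement and test nothing. The authors' list thresholded by the irreproducible discovery rate (IDR) contained 292 of the members (47.1%) and 46.9% of the 1500. Every member to rank 704 was in that list and none from rank 707 on, so it restates the pooled signal and adds no information on agreement.

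Examples show how little single peaks can carry. C34C12.8 had signals of 4.30, 10.8 and 43.2 in replicates 1, 2 and 3, at ranks 3535, 2045 and 72. T24B8.3 had no peak in replicate 1 and signals of 8.32 and 42.6 in replicates 2 and 3, and F02E9.5 had a peak in replicate 3 alone, with a signal of 46.8. These were the members of highest pooled signal that a single top list held, and replicate 3 was that list for all of them. The strongest members in no top list were gsa-1, the gene of the stimulatory G protein alpha subunit (pooled signal 31.4), srlf-7 (31.05) and ape-1 (30.1). When the longer relaxed lists were used whole, 481, 570 and 598 members had a peak in replicates 1, 2 and 3, and 418 had a peak in all of them.

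Recovery fell with rank. In the 300 highest pooled peaks, 72.3% of the 112 members were in all 3 top lists, and among the lowest 300 of the 1500 none of the 118 members was. The limit of 1500 in each list makes part of this fall inevitable.

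Member summits lay mostly just upstream of genes. The median summit was 220 bp upstream of the nearest 5′ end, with quartiles at 97 and 402 bp, and 551 of the 620 (88.9%) were upstream. Within 500 bp on either side, a span that the selection did not weight, 430 of 499 summits were upstream (86.2%, exact 95% binomial interval 82.8 to 89.1). Among the lower-ranked promoter peaks this share was 54.3% (2941 of 5416), with an odds ratio of 5.24 (Fisher's exact test, two-sided, adjusted p = 8.8e-48 over 3 position tests). When each replicate's own 1500 highest peaks were used, the share was 79.2%, 76.8% and 82.0%, a mean of 79.4% ± 2.63 (SD, n = 3). All 3 replicates on their own thus placed most promoter summits upstream. Lower-ranked peaks may include background, which the relaxed list keeps, and its part in the difference was not tested. Peaks are not replicates of a condition, and p-values over peaks do not measure how worms or libraries vary.

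**Figure D2:**
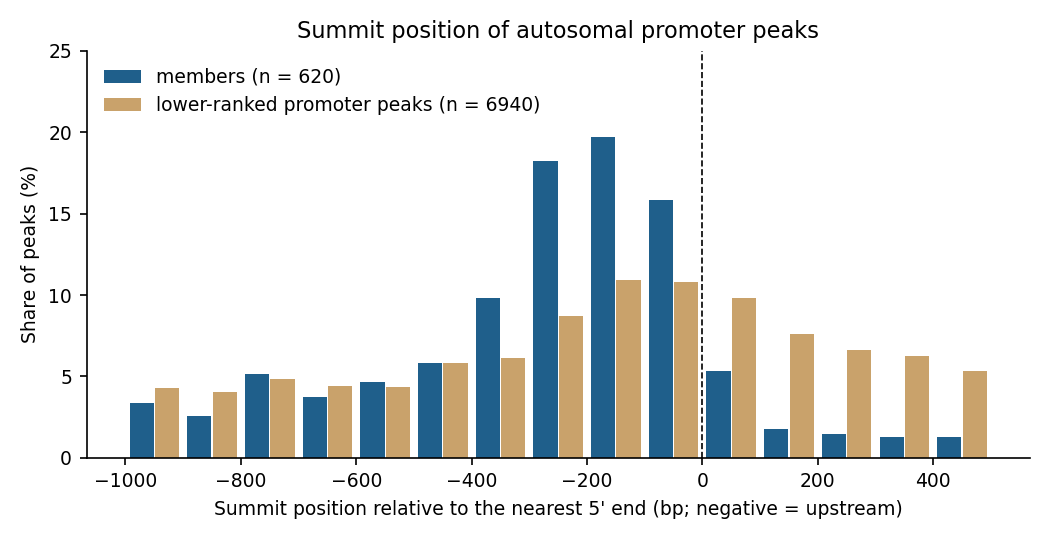
Share of peaks (%) in 100 bp bins of summit position relative to the nearest 5′ end (bp, negative is upstream), for the 620 members and the 6940 lower-ranked autosomal promoter peaks. Members are concentrated between 300 and 100 bp upstream, with 18.2% and 19.7% in those bins, and lower-ranked peaks continue downstream of the 5′ end.

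Many members stood between gene pairs transcribed away from each other. The summit was upstream of a gene on each strand at 157 members (25.3%), against 8.57% of lower-ranked promoter peaks (Fisher's exact test, two-sided, odds ratio 3.62 with an adjusted p of 3.53e-31). Among upstream summits only, the shares were 28.5% and 13.3% (Fisher's exact test, odds ratio 2.59 with an adjusted p of 3.37e-18). Replicates' own lists gave 18.6%, 19.5% and 19.3% (mean 19.2% ± 0.471, SD, n = 3), so each had a share above that of the lower-ranked peaks. A single gene was within reach of 430 members, 190 had 2 or more genes and 8 had 3. Which gene of a pair EGL-27 acts on cannot be read from such a peak.

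In all, 770 of 17242 autosomal protein-coding genes (4.47%) had a member, and the members had 579 different nearest genes. The share of genes with a member was 5.73% on chromosome I, 3.80% on II, 6.36% on III, 4.998% on IV and 2.84% on V. Chromosome V, which is rich in chemoreceptor and other expanded gene families, had the lowest share. The middle of the autosomes, 1 of 3 spans of equal length on each, held 44.7% of the members and 38.1% of the genes. Of the nearest genes, 48.7% had more than 1 annotated 5′ end, against 27.6% of all autosomal protein-coding genes and 40.2% of the genes nearest to lower-ranked promoter peaks. The selection took any annotated 5′ end, so genes with several of them offered it more windows. The part of this in the excess was not tested. The nearest genes had a median length of 2701 bp, against 1964 bp over all autosomal protein-coding genes. Genes nearest to lower-ranked promoter peaks had a median of 2503 bp, so most of this was shared by promoter peaks in general.

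The selection used no sequence, so motifs were tested, but the motifs searched were chosen with earlier results of these data known. The GAGAGA repeat, a purine repeat common in worm promoters, was present within 50 bp of 190 of 620 summits (30.6%, exact 95% interval 27.04 to 34.4). An equal window centred 300 bp further upstream held it in 6.94% of members, 4.42 times less often (exact McNemar test, two-sided, adjusted p = 2.5e-26 over 15 motifs). In the replicates' own lists, the share was 22.5%, 19.5% and 30.3% at promoter summits and 8.26%, 7.22% and 8.50% in their flanks. The repeat was thus more frequent at the summit than in the flank in 3 of 3 replicates. Over equal windows at all autosomal promoters it stood at 6.73%, and at lower-ranked promoter peaks at 10.2%.

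CTGCGTCTC, a string known from regions of the worm genome that many transcription factors occupy, was present at 68 summits (11.0%, interval 8.62 to 13.7) and in 5 flanks (0.806%), a ratio of 13.6 (exact McNemar test, adjusted p = 2.57e-14). Replicates' own lists held it at 6.33%, 4.76% and 10.6% of promoter summits and at 0.879%, 1.31% and 0.885% of flanks. The order was the same in 3 of 3 replicates, though the ratio ranged from 3.63 in replicate 2's own list to 68 with the flank moved to 600 bp upstream, and 0.853% of all promoter windows held it. Of the 620 members, 34 held both strings, 156 GAGAGA alone, 34 CTGCGTCTC alone and 396 (63.9%) neither. CTGCGTCTC was present in 17.9% of members with GAGAGA and in 7.91% of those without, which counts the 14 members where the strings overlap.

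Both shares were lower in the lowest 300 than in the highest 300 peaks. The fall was not steady and no trend was tested. From the 300 highest pooled peaks to the lowest 300 of the 1500, in steps of 300, GAGAGA was present at 35.7%, 36.3%, 28.1%, 30% and 22.03% of members. CTGCGTCTC was present at 18.8%, 11.6%, 8.77%, 12.3% and 3.39%. Median GC content at the summit fell from 48.5% to 41.6% over the same bands.

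**Figure D3:**
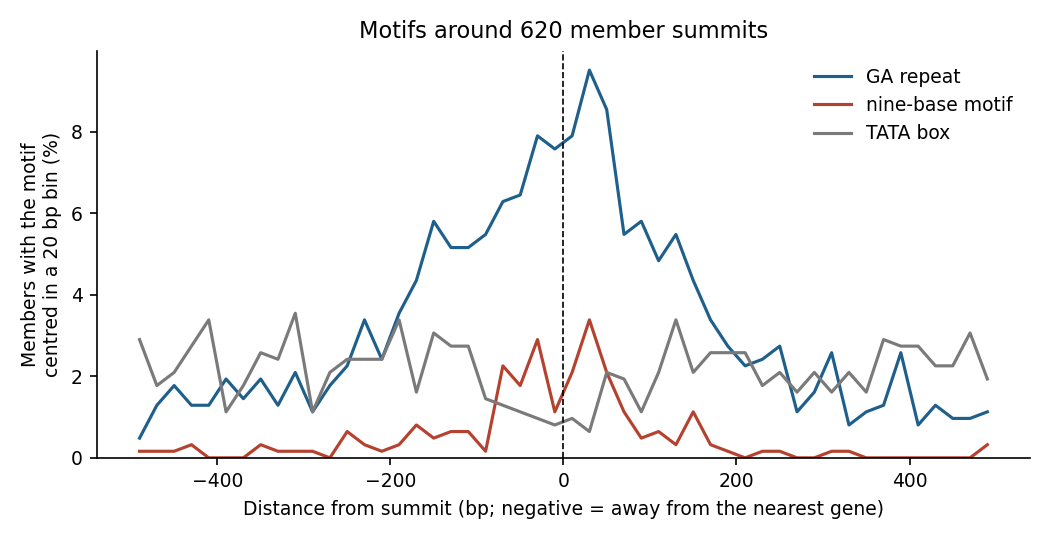
Share of the 620 members (%) with a motif centred in each 20 bp bin by distance from the summit (bp, negative is away from the nearest gene). GAGAGA (the GA repeat, blue) and CTGCGTCTC (the nine-base motif, red) are concentrated near the summit and TATAAA (grey) is sparse there.

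In 20 bp bins between 40 bp upstream and 60 bp downstream of the summit, GAGAGA was centred in 7.58% to 9.52% of members and CTGCGTCTC in 1.13% to 3.39%. In the 5 outermost upstream bins, 400 to 500 bp away, the shares were 0.484% to 1.77% and at most 0.323%. The median distance from the 5′ end was 245.5 bp for GAGAGA and 217 bp for CTGCGTCTC. Read on the strand of the nearest gene, GAGAGA alone was present in 83 members and TCTCTC alone in 94 (46.9% on the gene's strand, exact binomial test, two-sided, adjusted p = 0.452). The replicates' own lists gave 47.0%, 42.7% and 39.2%, and the last of these passed (exact binomial test, unadjusted p = 0.00845), as did 42.3% with the 3000 highest pooled peaks (exact p = 0.0109) and 42.5% with a window of 2000 bp (exact p = 0.0166). Whether the orientation of GAGAGA passed its test thus depended on the peaks used, and differences between the peak sets were not tested. CTGCGTCTC was on the gene's strand in 40 members and on the other in 28 (58.8%, exact binomial test, adjusted p = 0.387). Purine tracts made only of GA steps were mostly short: 23 members had a tract of at least 10 bp, against 2 flanks. Tracts of at least 20 bp were as rare at summits as in flanks, with 2 members and 2 flanks. The longest at a summit was 63 bp, at Y24D9A.6, a gene named after its value was seen.

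GAGAGA was unevenly spread over the members. It was present at 41.3% of the 121 summits 501 to 1000 bp upstream, 28.3% of the 152 at 251 to 500 bp, 26.3% of the 278 at 1 to 250 bp and 34.8% of the 69 at or downstream of the 5′ end. Members with the repeat had 2 or more genes in reach in 18.9% of cases, and members without it in 35.8%. These splits were made after the values were seen and were not tested.

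Of the 15 motifs searched, 6 (40%) were more frequent at member summits than in the flank and 4 (26.7%) less frequent, at an adjusted p under 0.05 by the exact McNemar test. Besides the strings above, the more frequent ones by this exact test were CCGCCC, a site of Sp1/KLF-type zinc fingers (5.65% against 1.77%, adjusted p = 0.00134), the general E-box CANNTG (36.9% against 28.5%, adjusted p = 0.0043), the Max-type E-box CACGTG (4.03% against 1.45%, adjusted p = 0.0151) and the E2F-type TTCCCGC (2.26% against 0.645%, adjusted p = 0.0463). CACGTG is also a case of CANNTG. Over all promoter windows these strings stood at 2.204%, 30.6%, 1.58% and 1.29%. Less frequent were TTTCAG, the splice acceptor string that also marks trans-splice sites (7.74% against 21.1%), TATAAA (4.68% against 11.3%), the T block TTTTTTT (9.03% against 19.7%) and the homeodomain string TAATTA (1.61% against 4.19%). All promoter windows held these in 17.99%, 13.3%, 23.9% and 6.12%.

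These 8 further calls varied with the list. In the replicates' own lists TTTCAG stood at 14.6%, 11.3% and 6.55% of summits and at 16.3%, 18.2% and 19.3% of flanks. In replicate 1's own list none of the 8 passed (exact McNemar test, adjusted p from 0.125 to 1). In those of replicates 2 and 3, CCGCCC passed, as did the T block, TATA and splice acceptor strings. CANNTG passed in that of replicate 2 alone, CACGTG and TTCCCGC in that of replicate 3 alone, and TAATTA in none. TATAAA also missed the threshold against the flank towards the gene (exact McNemar test, adjusted p = 0.0524), and CCGCCC without replicate 1 (adjusted p = 0.108 by the same exact test) or replicate 3 (adjusted p = 0.116). With only as many top peaks as the IDR list holds, CACGTG no longer passed (exact McNemar test, adjusted p = 0.0558), nor did CANNTG (adjusted p = 0.124), the E2F-type string (adjusted p = 0.469) or the homeodomain string (adjusted p = 0.0586) by the same exact test.

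GATA factor strings, which are GATAA or GATAG after an A or a T, were present at 19.03% of summits (interval 16.02 to 22.3) and 22.9% of flanks. This difference did not pass (exact McNemar test, adjusted p = 0.155), and the replicates' own lists gave 18.8%, 18.6% and 20.9% at summits and 21.4%, 19.4% and 24.96% in flanks. The shares at TGANTCA (AP-1), GTAAACA (forkhead), AGGTCA (nuclear receptor) and GGTTCGA (tRNA B box) strings, at 2.74%, 1.61%, 3.06% and 0.645% of summits, did not pass either.

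Base composition differed along with the motifs. Median GC content was 45.5% within 50 bp of member summits and 33.7% in the flank, and 490 of 620 summits exceeded their own flank, while windows at all autosomal promoters had a median of 33.7%. Of all 2080 merged 6-letter strings, 299 (14.4%) were more frequent at the summit and 224 (10.8%) less frequent by the same test. Strings that were more frequent had a median of 4 G or C letters, and those less frequent had 1. The part of composition in the motif results was not tested. GAGAGA stood first in this search, followed by AGAGAC (23.2% against 3.55%) and ACGCAG (19.5% against 1.77%), which overlap the strings above. CTCCGC, which was marked after the printed sequences had been seen, was present at 47 summits and 15 flanks (7.58% against 2.42%, exact McNemar test, adjusted p = 0.000505 over all 6-letter strings).

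Of the 396 members with neither GAGAGA nor CTGCGTCTC, some held a piece of the latter at the summit. Among these 396, CGAGAC was present at 12.9% of summits and 2.78% of flanks, AACGCG at 11.4% and 1.77%, GAGACC at 10.9% and 1.52%, and ACGCAG, which is part of CTGCGTCTC read on the other strand, at 10.6% and 2.02%. These shares were ranked by their difference and carry no test.

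Promoter summits and peaks elsewhere differed in few motifs. Of 60 comparisons of 15 motifs with 4 other peak classes, 10 (16.7%) passed an adjusted p of 0.05 by Fisher's exact test. Most of these were against the lower-ranked promoter peaks, which are promoters too. Against intronic, intergenic and X peaks, only GAGAGA at intergenic and GGTTCGA at X summits passed. GAGAGA was present at 54.4% of autosomal intergenic summits, against 30.6% of members (Fisher's exact test, odds ratio 0.37 with an adjusted p of 2.77e-10). In the replicates' own lists the promoter and intergenic shares were 22.5% and 38.0%, 19.5% and 31.2%, and 30.3% and 45.8%. Promoter summits thus held the repeat less often in 3 of 3 replicates. Intronic summits, at 40.4%, did not differ from members at the threshold (Fisher's exact test, adjusted p = 0.0756), and X summits had 29.7% (adjusted p = 0.995 by the same test).

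CTGCGTCTC was present at 16.3% of intronic, 14.2% of intergenic and 6.23% of X summits, and none of these passed against the members' 11.0% (Fisher's exact test, adjusted p = 0.254, 0.408 and 0.0756). GGTTCGA was rarer at members than at X summits (0.645% against 2.97%, Fisher's exact test, adjusted p = 0.0491). Against lower-ranked promoter peaks, members held more of the GA repeat, CTGCGTCTC, the Sp1/KLF-type string and the Max-type E-box, and less of the TATA, homeodomain, T block and splice acceptor strings (Fisher's exact test, 8 of 15 at an adjusted p under 0.05). The odds ratios there were 3.90 for GAGAGA and 7.25 for CTGCGTCTC (Fisher's exact test, adjusted p = 5.16e-38 and 4.94e-27).

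**Figure D4:**
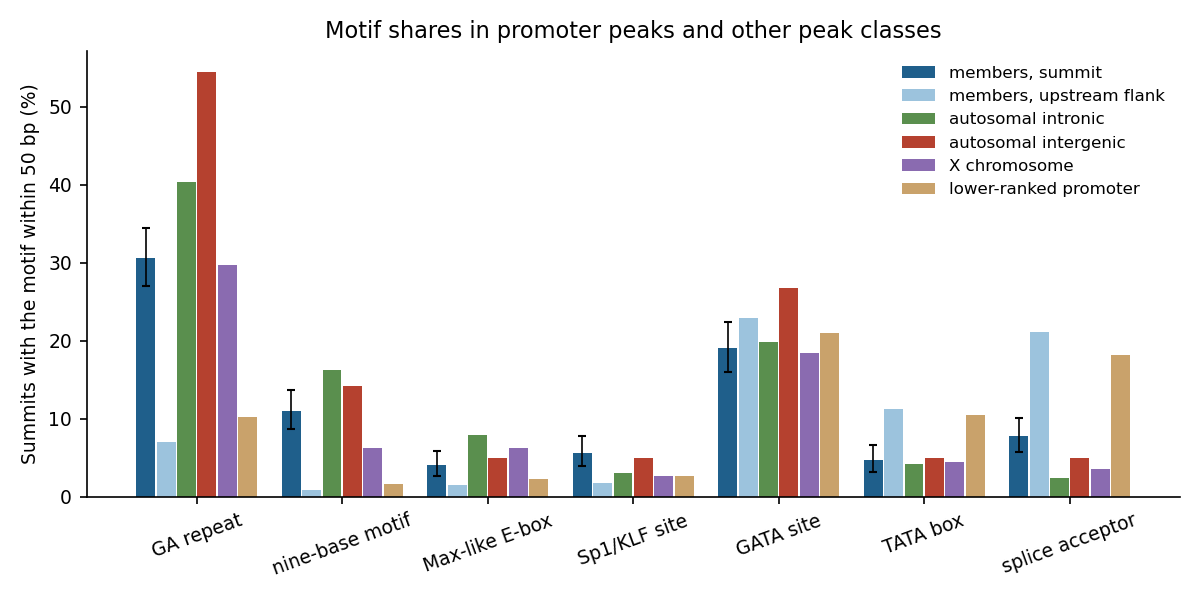
Share of summits (%) with each motif within 50 bp, for members, their upstream flanks, other peak classes among the 1500 highest peaks and lower-ranked promoter peaks; error bars on members are exact 95% binomial intervals. The GA repeat stands at 30.6% of members and 54.4% of intergenic summits.

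Members were also close to genes of small structural RNAs. Within 200 bp of the summit lay a tRNA gene at 11 members, a small nuclear RNA gene at 11 and a small nucleolar RNA gene at 13, together 35 members (5.65%, against 1.28% of lower-ranked promoter peaks, not tested). The summits at egg-5 and H41C03.3 were 2 of those with a small nuclear RNA gene. Their signal cannot be assigned to the protein-coding gene or to the RNA gene from these lists.

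The genes behind the members were counted in 31 lists, without a test, beside the 4.47% of all autosomal protein-coding genes that had a member. Of the lists, 23 were above that share and 28 had at least 1 gene with a member. Cytosolic ribosomal proteins had the highest share, with 32 of 80 genes (40%, exact 95% interval 29.2 to 51.6). All 32 summits were upstream, at a median of 292 bp. Of the 32, 4 held GAGAGA, none held CTGCGTCTC and 4 held CTCCGC, with no test against the other members. Counting only the gene nearest to each summit left 20 ribosomal protein genes, since the summit of the others was nearer to a neighbouring gene. The strongest were rpl-3, rpl-20 and rps-28, whose signals are given above.

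Other genes of gene expression and protein folding followed. Translation factors had a member at 8 of 37 genes, led by iff-2 (84.1), the elongation factor genes eef-2 (41.7) and eef-1G (38.8). At eef-2, 52 bp upstream, the replicate signals were 10.3, 17.1 and 13.1. Chaperones had 14 of 54, (5 by nearest gene alone), led by hsp-90, the heat shock cognate gene hsp-1 (76.05) and the chaperonin subunit gene cct-1 (57.0, a summit shared with mig-5). The hsp-1 summit had signals of 13.7, 24.97 and 38.04, and all 3 replicates ranked it within their 150 highest. Splicing genes had 10 of 57, led by snr-4 (60.4), hrpu-2 (33.7) and snrp-3 (33.1), and none of these 10 summits held GAGAGA or CTGCGTCTC. Aminoacyl-tRNA synthetases had 1 of 31 (nars-1, 27.2, a summit shared with nduf-6), and proteasome genes 3 of 33 (rpn-3, 28.7, rpn-11, 26.1, and rpt-2, 25.5).

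Chromatin genes were a further high share. Histone and chromatin modifiers had 13 of 36 genes (36.1%, interval 20.8 to 53.8; 8 by nearest gene alone), led by zfp-1, the histone H3K4 methyltransferase gene set-16 (64.7, a summit shared with drr-2) and the H3K36 methyltransferase gene met-1 (57.1). At set-16 the replicate signals were 10.5, 34.4 and 25.7, and the summit held both GAGAGA and CTGCGTCTC. Of 12 NuRD and related genes, 4 had a member, or 3 without the members within 20 kb of egl-27. These 4 were egl-27, lin-53 (42.6, the RbAp46/48 histone-binding subunit), dcp-66 (27.8, the p66 subunit) and lin-40 (22.7, the other MTA homologue). The lin-53 signals were 7.51, 20.2 and 9.82, and lin-40 had 12.4 in replicate 1, no peak in replicate 2 and 13.1 in replicate 3. Only the egl-27 peak was in all 3 top lists. Core histones had 4 of 46, with his-37 (67.3), his-67 and his-68 (31.4, a shared summit) and his-42 (26.2).

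Metabolic and stress genes were also above the overall share. Respiratory chain genes had 10 of 38, led by the cytochrome c oxidase subunit genes cox-5B (62.2), cox-6B (57.5) and cox-5A (57.2). The cox-5B signals were 9.65, 23.9 and 25.5 in the replicates, and the gene had 3 members. Insulin and stress signalling genes had 9 of 30, led by ogt-1, the unfolded protein response factor gene xbp-1 (50.6) and the FOXO factor gene daf-16 (34.9). The daf-16 signals were 6.20, 13.5 and 15.3, at ranks 1240, 850 and 860, so it was in all 3 top lists. Vacuolar ATPase genes had 3 of 18 (vha-8, 39.7, vha-13, 35.2, and vha-1, 25.3).

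Several small lists of developmental regulators had a share above 4.47%. Shares were 8% of Wnt genes, 25% of Hox genes and cofactors and 6.67% of ceh homeobox genes. Heterochronic genes had 20%, GATA factors 14.3% and seam and epidermis genes 10%. With counts of 1 to 3 genes the intervals are wide, such as 3.19% to 65.1% for the Hox list. The interval of each of these lists includes 4.47%. By contrast, the TGF-beta and BMP list had no gene with a member. Wnt genes with a member were mig-5, a Dishevelled homologue (57.0), and lit-1, the Nemo-like kinase (26.1), among 25. Hox genes and cofactors had ceh-20, the Pbx homologue (24.4), and ceh-13, the labial homologue (22.9), among 8, and ceh-38 (66.9) joined them among 45 ceh homeobox genes. The mig-5 and ceh-38 peaks were in all 3 top lists, and those of lit-1, ceh-20 and ceh-13 were each in a single one. Heterochronic genes were lin-28 (43.3) and lin-66 (41.5) among 10, GATA factors elt-1 (34.4) among 7, and seam and epidermis genes elt-1 and vab-10 (37.7) among 20. The elt-1 summit, upstream of a GATA factor that specifies epidermis, had signals of 10.9, 5.38 and 15.8.

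Nuclear hormone receptors, at 12 of 246 genes (4.88%), were near the overall share. Their leading summits were at nhr-58 (54.3), nhr-68 (52.9, shared with H12C20.7) and nhr-47 (40.1), and 7 of the 12 held GAGAGA. Genes of basic helix-loop-helix factors were hlh-11, hlh-30 (32.7) and aha-1 (24.8) among 29. Pan-neuronal genes had 5 of 21, at unc-76 (46.6), rgef-1 (37.0), maco-1 (31.1), egl-3 (29.1) and egl-21 (28.3). Cell cycle genes were lin-35 (43.97), the retinoblastoma homologue, lin-9 (35.4), efl-1 (26.3) and lin-23 (24.5) among 27, and larp-1 (34.9) was the 1 of 21 RNA-binding fate regulators. Cytoskeleton genes were unc-60 (41.8), tba-2 (39.4), act-2 (25.6) and tba-1 (23.8) among 28.

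Large tissue-restricted families had few members. Cuticle collagens had 4 of 146 (2.74%), with an interval of 0.751 to 6.87 that includes the overall 4.47%. These were col-85 (44.6), col-159 and col-160 (28.9, a shared summit) and col-38 (25.96, a summit shared with rpl-5). Chemoreceptors had 3 of 1270 (0.236%, interval 0.0487 to 0.689), at srh-2 (63.7), srz-62 (35.8) and srr-4 (23.5). F-box genes had 3 of 299, at fbxb-85 (39.5), fbxc-19 (25.8) and fbxc-54 (23.05), and C-type lectins 1 of 234, at clec-126 (39.0). Among smaller lists, those of 20 TGF-beta and BMP genes, 21 small RNA pathway genes and 31 major sperm protein genes had none. Their intervals reach 16.8%, 16.1% and 11.2%, and so include 4.47%. With the 3000 highest pooled peaks, the TGF-beta and BMP list and the small RNA pathway list had 3 genes each. The major sperm protein list still had none. Neighbouring genes can share a summit, so these counts are not independent, and the lists were chosen with earlier results of these data known.

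**Figure D5:**
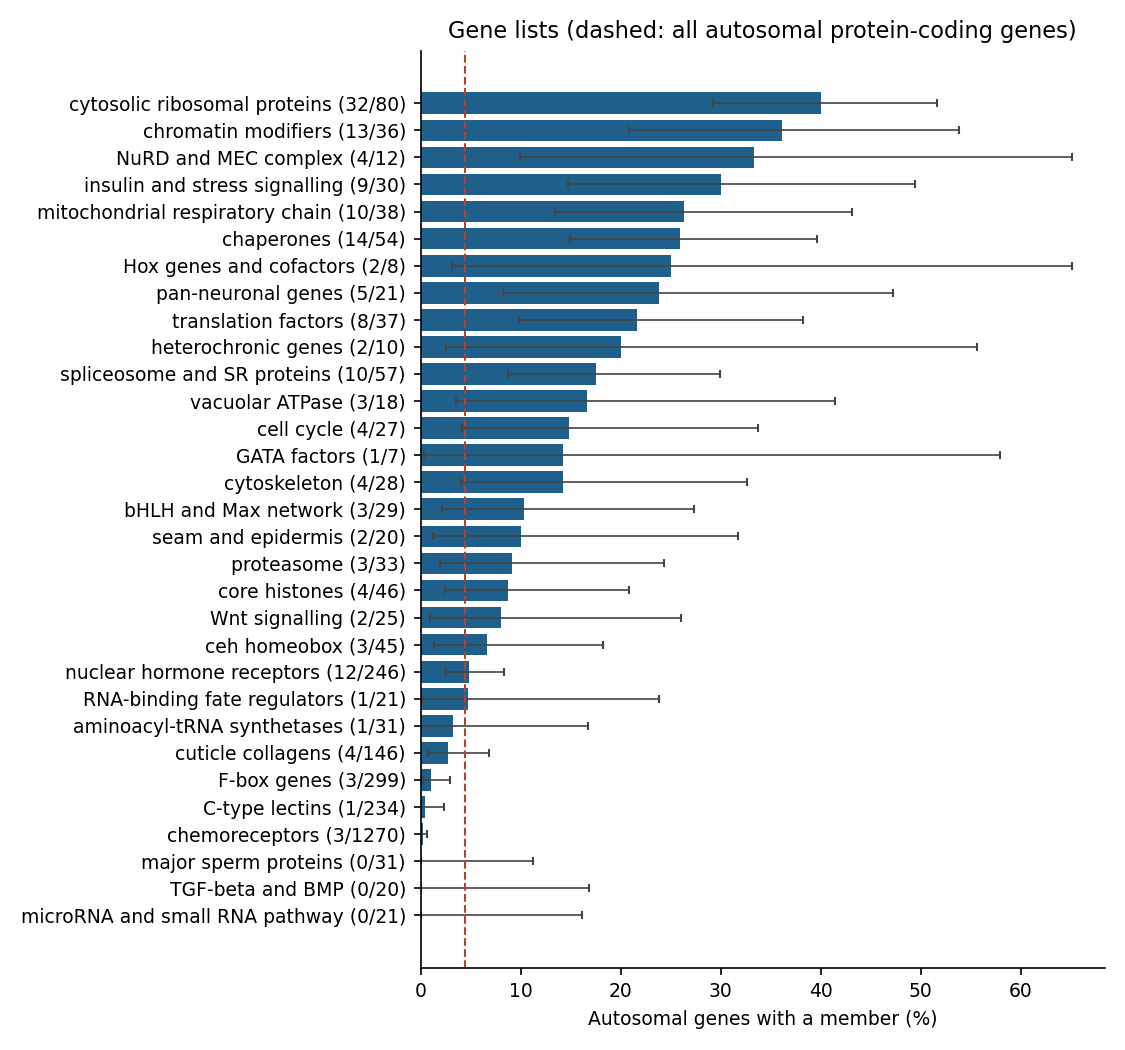
Share of the autosomal genes of each list with a member (%), with exact 95% binomial intervals and, in brackets, genes with a member over genes in the list; the dashed line is the 4.47% of all autosomal protein-coding genes. Cytosolic ribosomal proteins are highest at 40%, and chemoreceptors, F-box genes and C-type lectins lie below the line.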

How the data were processed

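Peak lists of 3 EGL-27-GFP L1 ChIP-seq replicates, their pool and the authors' IDR list were used in build ce11. The signal value and the -log10 q-value of each peak are as deposited by the authors, and a summit is the position their list names. Peaks were called per replicate and on the pool. Aligner, peak caller and read depth: not given in the sources used here. Peak heights are therefore given without an estimate of their counting error. Peaks were ranked by signal within a list, and q-values were not used. Positions came from Ensembl release 115 (WBcel235, the same chromosomes as ce11) and are 1-based.

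Motifs were searched on both strands in the 50 bp each side of a summit and in an equal window 300 bp further upstream (exact McNemar test) and between peak classes (Fisher's exact test), with Benjamini-Hochberg adjustment, in Python 3.11.15 with SciPy 1.17.1. The motif step was tested on simulated data. Intervals cover counting error only.

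Genes named were egl-27, the 20 members of highest signal, the 3 strongest genes of each list and every bound gene of lists with up to 6, the 3 strongest members in 3, 1 and no top lists, the 3 strongest holding both motifs, and the 3 on each side of the rank limit. Genes at the window edges and Y24D9A.6 were chosen after their values were seen. Members, lists and motifs were chosen with earlier results of these data known. Alternatives varied the rank limit, promoter window, motif window, flank and replicate lists.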

Additional observations from a re-analysis of the deposited data

Results flagged for a closer look

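A mitochondrial peak that the selection left out had a pooled signal of 184.946, above every promoter peak described here, and only 2 peaks of the pooled list were higher. It is a signal outside the nuclear peaks, with no control sample beside it, and its origin was not tested.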

How the results depend on the processing

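The GAGAGA and CTGCGTCTC excess at summits and the upstream share kept their direction and side of the threshold under every alternative that gave a value. CTGCGTCTC gave no ratio without replicate 1 or without replicate 3, because its flank count was 0 there (29 and 24 summits). Leaving out a replicate means requiring members to be in the top lists of the others. That left 173 to 206 members and 219 to 256 genes with a member, and called 2 to 3 motifs higher and 2 to 3 lower. The share of those members in the top list of the replicate left out was 59.2% to 70.5%, which is not a mean over replicates and not comparable with the other recoveries. With as many top peaks as the IDR list holds, the 3000 highest and IDR overlap, members were 292, 1174 and 305, genes with a member 365, 1386 and 365, and mean recovery 74.5%, 36.1% and 73.99%. Whole relaxed replicate lists recovered 88.7%. Ribosomal protein genes with a member were 11 to 14 with a replicate left out. Only 3 motifs were called higher with the IDR number of peaks, with IDR overlap and with the flank towards the gene. The GAGAGA share on the gene's strand passed its test at 42.3% (3000 highest; p = 0.0109, exact binomial test), 42.5% (2000 bp window; exact p = 0.0166) and 39.2% (replicate 3's own list; exact p = 0.00845), and lay above 50% when a replicate was left out, at 50.8% to 53.6%. The cause of these moves was not tested. Motifs that failed the test mostly gave the reversals in summit to flank ratio: TGANTCA at 0.917 (500 bp window), 0.857 (25 bp motif window), 0.81 (flank towards the gene) and 0.824 (replicate 3's list), GTAAACA at 1.67 with either other flank, 1.14 in replicate 1's list and 0.333 to 2 with a replicate left out, AGGTCA at 0.968 (100 bp motif window) and 0.75 to 2.5 with a replicate left out, GATA at 1.28 (flank 600 bp upstream) and GGTTCGA at 0 without replicate 2. TTCCCGC, which was called, gave 0.7 in replicate 2's own list. No paired analysis was possible because the replicates form a single group. Depth and the number of worms behind each list are unknown, so a peak missing from a replicate list does not show absence of binding.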

Other observations

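The sec-61.G summit, 247 bp upstream of the gene of a small subunit of the Sec61 translocon, was the third of the strongest members that held both GAGAGA and CTGCGTCTC, after Y97E10C.1 and Y43F8B.2. Its signals were 9.57, 17.96 and 39.7 in replicates 1, 2 and 3, and 72.4 in the pool. The Y43F8B.2 summit, 19 bp upstream of its gene, had signals of 14.7, 21.4 and 46.2, and 75.7 in the pool. All of these were in the top lists of all 3 replicates.

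A total of 37 genes had more than 1 member. Besides egl-27 with 7, there were 6 genes with 3. Some members lay close together: 19 neighbouring pairs of 390 bp peaks overlapped, and 22 pairs had summits within 1000 bp of each other.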
